A study of Caenorhabditis elegans with 12 samples.

Results

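Single-exon assembled lncRNA loci are stretches of the Caenorhabditis elegans genome where the authors' assembly of the reads placed a noncoding transcript with no intron. They were taken from the lncRNA table as the assembled loci, written LXLOC, whose transcripts all have 1 exon in the deposited transcript table. This gave 3104 of 3926 loci, against 679 assembled loci with more exons and 134 annotated lncRNA genes; a further 9 assembled loci were left out by the rule. Whole worms of 2 strains grown on E. coli OP50 were measured as total RNA, to relate mitochondrial polymorphisms and ageing to the transcriptome. N2, the laboratory strain with a wild type genotype, and CN30, whose genotype is given as trans-nuclear, were each sampled at day 0, with 3 libraries, and at days 6, 9 and 12, with a single library per day. Nothing says that the 3 day-0 replicates were grown apart, so their spread, and with it the p-values, may be technical. The parents of CN30, for nucleus and mitochondria, are not given in the sources used here.

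A long noncoding RNA is a transcript that is not read into protein. Most protein-coding transcripts of the worm are spliced, and many also receive a short leader by trans-splicing. A transcript of 1 exon has no splice junction to show its strand or to separate it from unspliced pre-mRNA, from a transcribed 3′ end, or from reads of a neighbouring structured RNA, so its place beside annotated genes matters for reading its level. Antisense transcripts, which run across a gene on its other strand, are a familiar class of such loci, and small structured RNAs such as snRNAs, which build the spliceosome, and snoRNAs, which guide rRNA modification, are another frequent neighbour.

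Values are FPKM, fragments per locus, scaled for its length and for the mapped total. No counts were used, the depth is unknown, and no counting interval can be given. The transcript table gives a strand for all but 3 of the loci, with 1582 on the plus strand and 1519 on the minus strand. Whether the library preparation kept the strand is not given in the sources used here, so reads of a locus and of a gene on its other strand cannot be told apart where they overlap.

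All 3104 loci had 1 transcript. They ranged from 200 to 16169 bases with a median of 637, against a median of 993 for the multi-exon loci. The quartiles were 371 and 1245 bases. The shortest, LXLOC_001803 on chromosome I, was above 0 only in N2 day 12, at 0.91 FPKM, and in CN30 day 0 replicate 3, at 0.24. The longest, LXLOC_010754 on chromosome IV, lay over the annotated noncoding gene K02B2.36 and reached a mean of 0.40 FPKM over the 12 libraries. The loci were spread over the chromosomes, with 535 on I, 481 on II, 504 on III, 481 on IV, 547 on V and 556 on X.

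The loci were set against the genes of the WBcel235 annotation by an overlap of at least 1 base. A locus over exons of both strands was placed in the same-strand class. By this order 1353 loci (43.6%) overlapped an exon of a gene on the other strand and none on their own. A further 1086 (35%) overlapped no gene, 565 (18.2%) overlapped an exon on the same strand, 81 lay in an intron on the same strand and 16 in an intron on the other strand. Among the multi-exon loci the order was different, with 534 (78.6%) over an exon on the same strand, 73 (10.8%) antisense and 63 (9.28%) intergenic. When the overlap had to cover 50% of the locus, 822 of the 1353 stayed antisense and 44 entered from the same-strand class, which gave 866. Under that rule 1673 loci were classed as intergenic and 74 lay over a same-strand exon. The 1673 take in 239 antisense and 348 same-strand loci that do overlap an exon, but over less than 50% of the locus.

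The antisense loci lay mostly across protein-coding genes, in 1176 cases (86.9%), and the gene's exons covered a median of 63.4% of the locus. The same-strand class differed in kind. Its genes were noncoding RNA genes in 303 cases, protein-coding genes in 104, piRNA genes in 41, pseudogenes in 39, snoRNA genes in 24, snRNA genes in 19, tRNA genes in 13 and miRNA genes in 9. The gene's exons covered a median of 12.4% of these loci, and at least 50% of 74 of the 565. Intergenic loci lay a median of 886 bases from the nearest gene, and 102 of them (9.39%) had a same-strand gene ending within 1000 bases upstream. Of all single-exon loci, 685 (22.1%) lay within 1000 bases of another on the same strand, and 625 (20.1%) overlapped an assembled locus on the other strand.

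**Figure D1:**
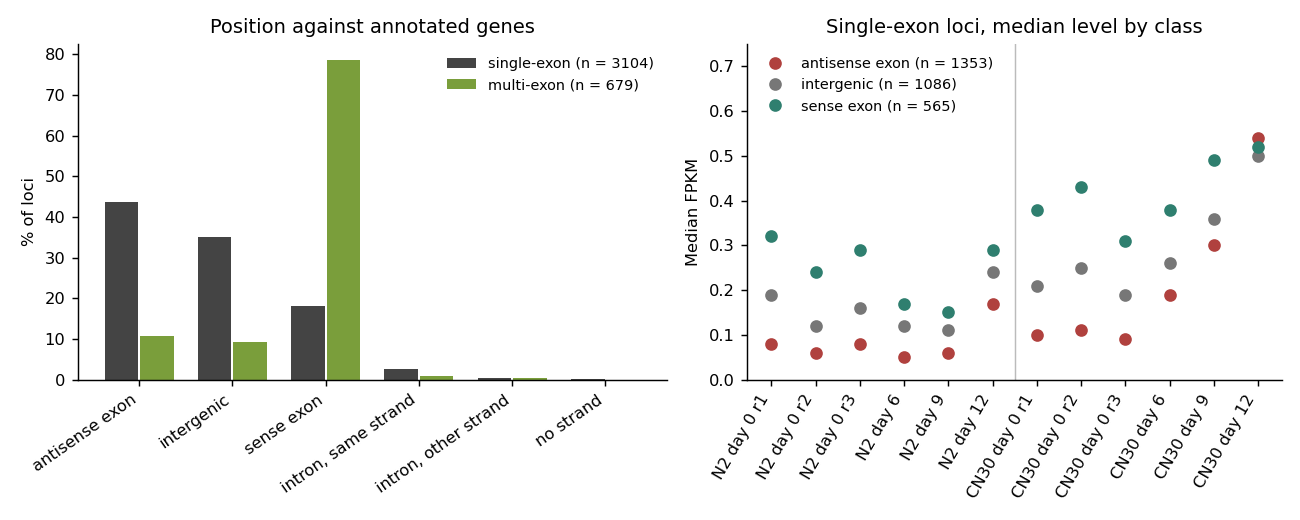
Left, bars give the percent of single-exon and of multi-exon assembled loci in each position class, by an overlap of at least 1 base. Right, each point is the median FPKM of a class of single-exon loci in 1 library (r, replicate), with the N2 libraries left of the grey line; antisense loci go from medians of 0.05 to 0.17 FPKM in N2 to 0.54 FPKM in CN30 day 12.

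Most of these loci were close to the floor. Over the 12 libraries, 1310 (42.2%) were above 0 in every library, 132 (4.25%) were at 0 in 11, and none was at 0 in all 12. In all, 26.4% were at 0 in 6 or more libraries, against 9.28% of the multi-exon loci and 36.6% of the annotated lncRNA genes. The median of the mean level was 0.245 FPKM, with quartiles of 0.145 and 0.399, against 0.714 for the multi-exon loci and 0.125 for the annotated genes. A mean of 1 FPKM was reached by 202 loci and of 10 FPKM by 29.

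Zeros were concentrated in short loci. In loci of 200 to 371 bases, 56.7% of the values were 0. The share was 29.0% in loci of 372 to 637 bases, 12.3% in loci of 638 to 1245 bases and 4.85% in longer ones. Of the 4 larger position classes, antisense loci were lowest, with a median mean level of 0.2 FPKM, followed by intergenic loci at 0.251, same-strand intronic loci at 0.307 and same-strand exonic loci at 0.334. The same-strand exonic loci were also the longest of these, with a median of 1018 bases, so class and length moved together.

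The share of single-exon loci at 0 differed between libraries. It was 28.8%, 32.1% and 30.2% in the N2 libraries of day 0, and 28.4%, 26.8% and 28.3% in those of CN30. In N2 it was 32.5% at day 6, 32.0% at day 9 and 22.2% at day 12. In CN30 it was 20.7% at day 6, 15.8% at day 9 and 11.1% at day 12, so each later CN30 library had fewer zeros than every day-0 library and than the N2 library of its day. The medians followed, at 0.25, 0.36 and 0.52 FPKM in CN30 at days 6, 9 and 12, against 0.10, 0.10 and 0.22 FPKM in N2. The 6 day-0 libraries had medians of 0.12 to 0.22 FPKM. Each later day is 1 library per strain, so the order of the days has no replicate. In the mRNA table the share of genes at 0 was also lowest in the later CN30 libraries, at 9.5% to 10.8%, against 13.7% to 17% in later N2 and 13.3% to 16.5% at day 0, and the part of depth in these shares was not tested.

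**Figure D2:**
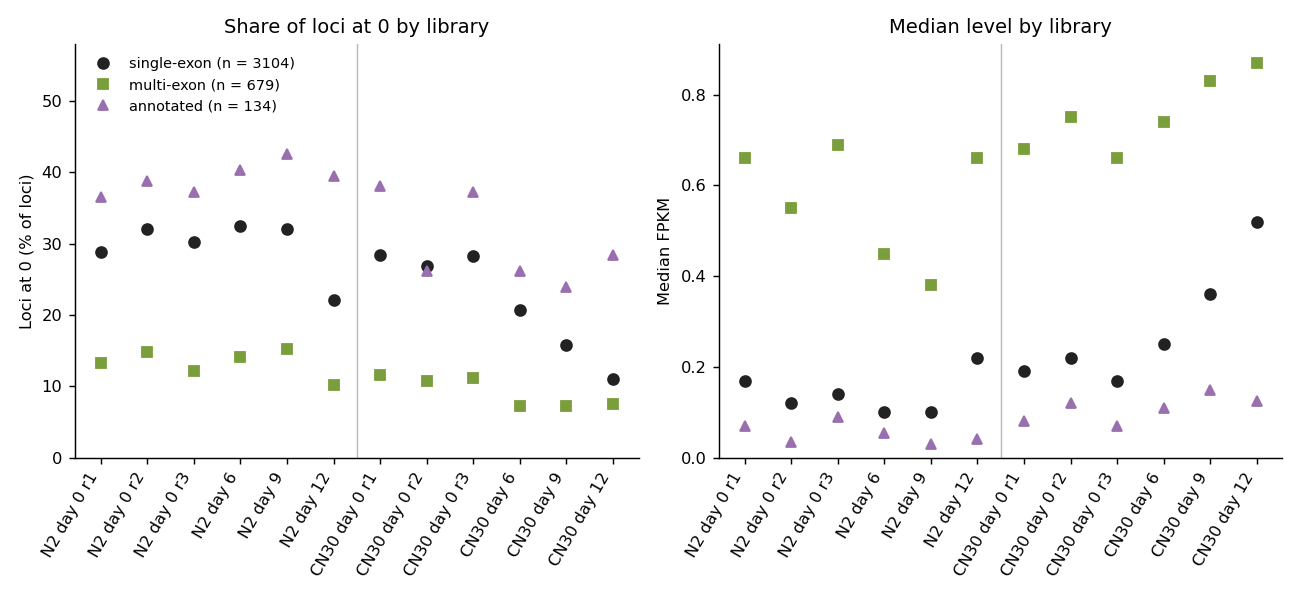
Left, each point is the percent of loci listed at 0 in 1 library, for single-exon, multi-exon and annotated loci. Right, the median FPKM of the same loci. N2 libraries are left of the grey line, and r is the replicate; the single-exon points in the 3 later CN30 libraries go down to 11.1% at 0 and up to a median of 0.52 FPKM.

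Of the 3 largest position classes, antisense loci had the widest range of library medians. Their median was 0.06 to 0.08 FPKM for N2 and 0.09 to 0.11 FPKM for CN30 at day 0. At days 6, 9 and 12 it was 0.05, 0.06 and 0.17 FPKM in N2, and 0.19, 0.30 and 0.54 FPKM in CN30. At day 12 in CN30 the antisense, intergenic and same-strand exonic medians were close to each other, at 0.54, 0.50 and 0.52 FPKM. The share of antisense loci at 0 was 36.2% to 41.3% in the 6 day-0 libraries and 12.5% in CN30 day 12. No single-exon locus was at 0 in all 6 libraries of one strain and at 0.5 FPKM or more in all 6 of the other, and none parted day 0 from the later days in that way.

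A pair of loci held almost all of the summed signal. LXLOC_009118 and LXLOC_007640 lay over srpr-2.2 and srpr-2.1, genes of the RNA of the signal recognition particle, which brings ribosomes with secretory proteins to the endoplasmic reticulum. LXLOC_009118 spans bases 5031343 to 5031702 of chromosome III on the minus strand, and LXLOC_007640 bases 5211226 to 5211596 on the plus strand. Together they made up 90.2% to 96.5% of the summed FPKM of the single-exon loci in each library.

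LXLOC_007640 stood at 26976, 29753 and 27144 FPKM in N2 at day 0 and at 21765, 26360 and 31271 in CN30. At days 6, 9 and 12 it was 20761, 25318 and 17982 in N2, and 14072, 22208 and 25919 in CN30. The ranges of the strains overlapped at day 0 and at the later days. Neither locus passed the test in any comparison, and because the 2 genes may share reads, the split between the loci is uncertain.

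The next highest locus was LXLOC_008422, on chromosome III, which overlaps osm-12, a gene for a ciliary protein of the Bardet-Biedl family, by 12 bases on the other strand. It was at 409, 543 and 551 FPKM in N2 at day 0 and at 726, 1074 and 1135 in CN30. At days 6, 9 and 12 it was 375, 391 and 321 in N2, and 557, 869 and 586 in CN30. All CN30 libraries were above all N2 libraries. It was higher in CN30 by a log2 difference of 0.95 ± 0.22 (SE) at day 0 (limma adjusted p = 0.0327) and by 0.86 ± 0.21 later (limma adjusted p = 0.0173). osm-12 itself was at no more than 0.93 FPKM in any library. After quantile normalization, which gives loci of equal rank equal values, the differences of LXLOC_008422 were 0.22 and 0. The day-0 call was lost without N2 replicate 1 or 3 or CN30 replicate 2 or 3, and the later call without day 9 or day 12 of either strain.

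LXLOC_010344 and LXLOC_013687, both on chromosome IV and antisense to the gene Y38F2AR.12 and to 73 bases of another protein-coding gene, had means of 320 and 309 FPKM. LXLOC_010344 was at 302 ± 58.1 FPKM (SD, n = 3) in N2 and 506 ± 87.2 in CN30 at day 0, a difference that did not pass (limma adjusted p = 0.0617). It fell with age in CN30, with a log2 difference of -0.94 (limma adjusted p = 0.00961), as did Y38F2AR.12, also with -0.94 (limma adjusted p = 0.000342). LXLOC_013687 fell with age in both strains, with log2 differences of -1.03 ± 0.23 (SE) in N2 and -1.05 ± 0.18 in CN30 (limma adjusted p = 0.00741 and 0.00181). After quantile normalization the change of LXLOC_010344 was 0.03, and those of LXLOC_013687 were -0.35 and -0.09, none of them called.

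In the comparisons that follow, a locus was tested where at least 3 libraries of the fit reached 0.5 FPKM, so that most of these loci entered no test. A low locus can enter through its higher group alone, so the counts below are read against the share of the whole lncRNA table that was called, not as counts over all 3104 loci. Changes are on the scale of log2(FPKM + 1), which understates the change of low loci. The smallest p of an exact permutation test of 3 against 3 libraries is 0.1, and the calls therefore use the spread pooled over loci by limma.

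At day 0, 54 single-exon loci were higher and 7 lower in CN30, of 672 tested. That is 9.08%, against 10.5% called in the whole lncRNA table, of which 7.17% were higher and 3.32% lower. The median log2 difference was 0.129, and 0.105 over all loci tested. The groups did not overlap in 178 of the 672, against 31.9% of the tested table. By position, 22 of 207 tested same-strand exonic loci, 15 of 236 intergenic and 14 of 197 antisense loci were higher. With no filter, all 3 CN30 libraries were above all 3 N2 libraries for 326 of the 3104 loci (10.5%, against 11.6% of the table), and below for 79 (2.55%, against 4.43%). Of the 61 calls, 21 were not tested without any 1 of the CN30 libraries, and 4 without any 1 of the N2 libraries. A locus at 0.5 FPKM or more only in the 3 libraries of 1 strain could be called only as higher in that strain. Quantile normalization left 34 higher and 15 lower. The count was 26 without a filter, and without single libraries it was 26 (N2 replicate 1), 32 (N2 replicate 3), 23 (CN30 replicate 1), 15 (CN30 replicate 2) and 20 (CN30 replicate 3).

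Among the named loci was LXLOC_021304, of 296 bases at 1998815 to 1999110 of chromosome X, over the annotated noncoding gene Y40A1A.6. It was at 68.5, 98.4 and 79.0 FPKM in the N2 libraries of day 0 and at 279, 311 and 349 in those of CN30. At days 6, 9 and 12 it was 69.5, 60.3 and 47.8 in N2, and 236, 293 and 196 in CN30. The strains did not overlap at any age. The log2 difference was 1.93 ± 0.19 (SE) at day 0 (limma adjusted p = 0.000727) and 2.01 ± 0.21 later (limma adjusted p = 0.000156).

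LXLOC_004300, an intergenic locus of 1057 bases on chromosome II, was at 1.69, 1.38 and 2.08 FPKM in N2 at day 0 and at 7.95, 9.75 and 9.84 in CN30. It stayed apart later, at 1.20, 0.88 and 1.46 against 5.17, 6.58 and 5.84. No library of one strain reached the other. Its log2 differences were 1.91 ± 0.16 (SE) at day 0 (limma adjusted p = 0.000378) and 1.66 ± 0.20 later (limma adjusted p = 0.000456). LXLOC_008705, of 212 bases in a same-strand intron on chromosome III, had the largest difference of the named loci at day 0, with 0.88 ± 0.38 FPKM (SD, n = 3) in N2 and 6.79 ± 1.61 in CN30, or 2.05 on the log2 scale (limma adjusted p = 0.00107). LXLOC_022585, an intergenic locus on chromosome X, was at 5.69, 6.68 and 5.87 FPKM in CN30 and at 0.43, 0.52 and 2.02 in N2, where replicate 3 was above the others (log2 difference 1.92, limma adjusted p = 0.00436).

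Of the 7 loci that were lower in CN30 at day 0, LXLOC_018842 is a 456-base locus of chromosome V that overlaps the snRNA gene F11A5.14. It was at 1.62, 2.52 and 1.70 FPKM in N2 and at 0.33, 0.28 and 0.31 in CN30. Later it was at 1.07, 1.72 and 1.96 in N2, and at 0.60, 0.29 and 0 in CN30. Every N2 library was above every CN30 library. The log2 differences were -1.16 ± 0.15 (SE) at day 0 (limma adjusted p = 0.0026) and -1.0 ± 0.23 later (limma adjusted p = 0.0143), and the later call was lost without the filter.

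LXLOC_005092, an intergenic locus of 1752 bases on chromosome II, was at 1.24, 1.30 and 1.60 FPKM in the N2 libraries and at 0.13, 0.15 and 0.18 in those of CN30 at day 0 (log2 difference -1.04 ± 0.12, limma adjusted p = 0.00128). The gap was smaller at day 6, where N2 was at 1.25 and CN30 at 0.70 FPKM. LXLOC_012218, an intergenic locus of chromosome IV, was at 18.3 ± 3.1 (SD, n = 3) in N2 and 9.83 ± 0.93 in CN30 (log2 difference -0.83, limma adjusted p = 0.0231). At the later days its means were 10.7 FPKM in N2 and 11.2 in CN30, which did not pass (log2 difference 0.08, limma adjusted p = 0.813). LXLOC_010053, on chromosome III, was at 1.92 ± 0.30 and 0.95 ± 0.17 FPKM (log2 difference -0.58, limma adjusted p = 0.0388). Its later means were 0.32 FPKM in N2 and 0.54 in CN30, and it was not tested between the strains there. The call of LXLOC_010053 was lost without any 1 library of the fit, and that of LXLOC_012218 without any but N2 replicate 2.

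Over all 12 libraries, 39 single-exon loci (1.26%, against 1.53% of the lncRNA table) had all 6 CN30 values above all 6 N2 values. The reverse held for 3 (0.0966%, against 0.382%), which were LXLOC_018842, LXLOC_005092 and LXLOC_018905, the last of them named after its values were seen.

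**Figure D3:**
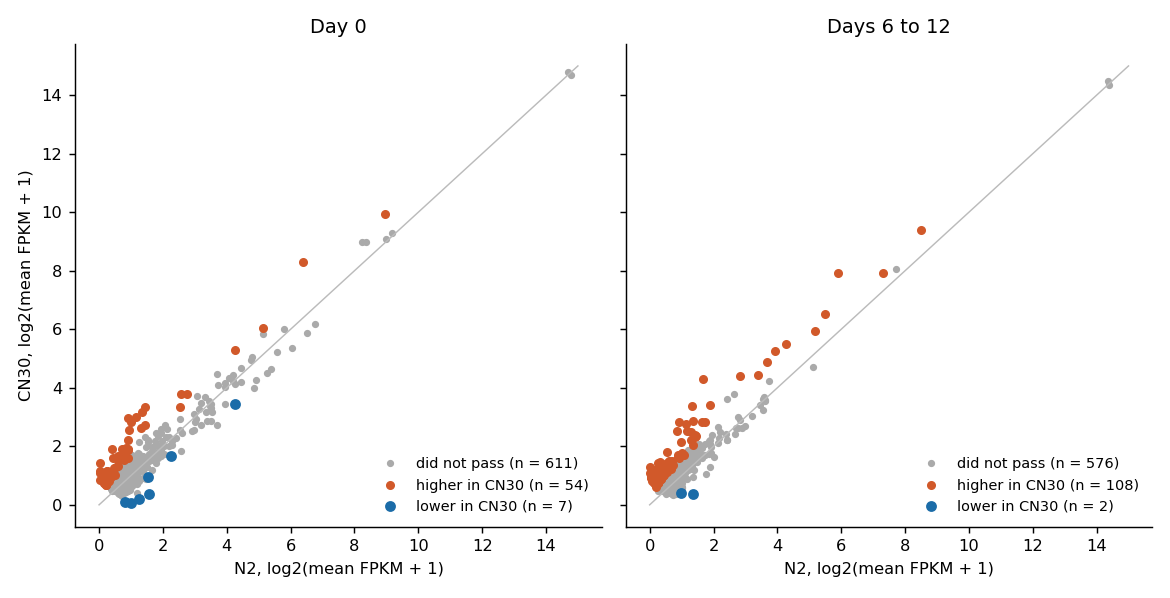
Each point is a single-exon locus that entered the test, at its mean level in N2 (horizontal) and CN30 (vertical), both as log2(mean FPKM + 1), at day 0 (left) and over days 6 to 12 (right). Points on the grey line have equal means; 54 and 108 loci are higher and 7 and 2 lower in CN30, and the pair at the top right is the signal recognition particle RNA.

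Loci over small structured RNA genes were among those that differed at day 0. Of the 19 loci over snRNA genes, 14 were tested, and 7 were higher and 1 lower in CN30. The genes were taken by annotated biotype, which includes sls-2.4 and sls-2.11, genes of the leader RNA of trans-splicing. The locus over sls-2.4 was 1 of the 7. Over all 19, with no filter, 18 had a higher mean in CN30, and for 11 all CN30 libraries were above all N2 libraries, against 11.6% of the table. LXLOC_006964, over C47F8.9, was at 4.38, 7.49 and 5.32 FPKM in N2 and at 10.6, 14.9 and 12.6 in CN30. LXLOC_002338, over H27M09.6, was at 4.11, 7.12 and 3.36 in N2 and at 12.3, 12.5 and 14.2 in CN30. The strains did not overlap in either. The log2 differences were 1.04 and 1.30, with limma adjusted p of 0.0208 and 0.0116.

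N2 replicate 2 was the highest N2 library for both of these loci. Summed over the 19 loci, it had 28.6 FPKM, against 17.6 and 18.0 FPKM in N2 replicates 1 and 3 and 40.4, 51.7 and 47.5 in CN30. The number of snRNA loci higher in CN30 at day 0 was 9 without that library and 2 and 4 without N2 replicates 1 and 3, of 13 tested. It was 3, 0 and 1 without CN30 replicates 1, 2 and 3, where only 10 were tested and 8 or 9 of these had a positive difference. It was 4 after quantile normalization and 3 with no filter. In both strains the sum was lower at the later days, at 5.37 to 11.2 FPKM for N2 and 14.0 to 17.5 for CN30. All 19 had a lower mean later in N2, where 3 of 6 tested fell, and 18 did in CN30, where 11 of 14 tested fell. Over all loci tested 27.5% fell in N2 and 24.8% in CN30, and of all 3104 loci 1389 and 1018 had a lower mean later. snRNA genes have near-identical copies between which reads may have been split, so single values are uncertain. Of the 24 loci over snoRNA genes, 17 were tested at day 0, 4 were higher and none lower, against 7.17% of the tested table higher. Of the 24, 21 had a higher mean in CN30, as had 1695 of all 3104 loci. The 4 calls became 7 without N2 replicate 2, 1 without N2 replicate 1 or 3, 2 without CN30 replicate 1, 0 without CN30 replicate 2 or 3, and 1 after quantile normalization. In these runs 14 to 17 of the snoRNA loci were tested.

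The share called between the strains varied by chromosome, and its difference between chromosomes was not tested. X and I are given below as the chromosomes with the highest and the lowest share. On the other chromosomes 6.48% to 12.7% of the tested loci were called at day 0 and 12.8% to 18% at the later days. On X, 16 of 84 were higher and none lower at day 0, against 4 higher and 2 lower of 129 on I, with 7.17% of the tested table higher. At the later days 29 of 93 on X were higher and none lower, against 9 of 139 on I, with 18.3% of the tested table higher. Leaving out a library gave 6 to 17 higher on X at day 0 (6 without CN30 replicate 2, 7 without CN30 replicate 3, 8 without CN30 replicate 1, 9 without N2 replicate 1) and 0 to 6 on I (0 without CN30 replicate 2 or 3, 1 without replicate 1 of either strain, 6 without N2 replicate 2). At the later days it gave 13 to 35 on X (13 without CN30 day 9, 17 without CN30 day 6, 18 and 19 without N2 days 9 and 6) and 5 to 24 on I (5 without CN30 day 9, 18 without CN30 day 12, 24 without N2 day 12). Without a filter the contrast was smaller. At day 0 all CN30 libraries were above all N2 libraries for 11.9% of the 556 loci on X and 8.97% of the 535 on I, and at the later days CN30 was higher on each day for 46.9% and 41.1%. After quantile normalization 4 of the 93 on X and none of the 139 on I were called at the later days.

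At days 6 to 12, compared in pairs of equal age, 108 single-exon loci were higher and 2 lower in CN30, of 686 tested. That is 16%, against 19.9% of the table, of which 18.3% were higher and 1.58% lower. The median log2 difference was 0.273 over the tested loci and 0.271 over the whole table, a shift that quantile normalization took to -0.01. The sign was the same on all 3 days in 370 of the 686, against 56.1% of the tested table. Under that scaling 15 were higher and 5 lower. Without the filter, CN30 was above N2 on all 3 days for 1271 of the 3104 loci (40.9%, as in the whole table), and below on all 3 for 68 (2.19%, against 3.62%). Of the 110 calls, 49 were not tested without CN30 day 6, and 51 without CN30 day 9 or day 12. Without N2 day 12 this held for 2, and without N2 day 6 or day 9 for 0. A locus at 0.5 FPKM or more only in the 3 later CN30 libraries could be called only as higher in CN30. The count of 110 was 8 with no filter, 37 with a filter of 1 FPKM and 52 with no day term. It was 71 without N2 day 9, 186 without N2 day 12, 64 without CN30 day 6 and 44 without CN30 day 9.

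LXLOC_005458, an intergenic locus of 5714 bases on chromosome II (bases 2002134 to 2007847), had the largest later difference. At day 0 its values were close, at 1.25, 1.37 and 1.22 FPKM in the N2 libraries and at 1.58, 1.64 and 1.49 in those of CN30. At days 6, 9 and 12 they were 0.79, 1.69 and 4.16 in N2, and 8.37, 20.5 and 27.3 in CN30. The later log2 difference was 2.61 ± 0.20 (SE, limma adjusted p = 2.88e-05), and at day 0 it was 0.17 (limma adjusted p = 0.429). The difference between these, tested as the interaction of strain and age, was 2.44 ± 0.55 and missed the threshold (limma adjusted p = 0.0593).

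LXLOC_003579, also intergenic on chromosome II, was at 0.51, 1.23 and 2.83 FPKM in N2 and at 4.65, 9.75 and 13.8 in CN30 at the later days. Its log2 difference was 2.04 ± 0.19 (SE, limma adjusted p = 0.000106), and 0.53 at day 0 (limma adjusted p = 0.0379), a call lost without any 1 library but N2 replicate 1. LXLOC_019026, intergenic on chromosome V, was at 0.46, 1.14 and 1.02 FPKM in N2 and at 3.35, 7.81 and 7.06 in CN30, a log2 difference of 1.87 (limma adjusted p = 0.000156), and was higher at day 0 as well (1.33, limma adjusted p = 0.00121). In all 3 of these loci each later CN30 library was above each N2 library of the later days.

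A larger share of the tested loci was called between ages than between strains. In N2, 33 single-exon loci rose and 118 fell from day 0 to days 6 to 12, of 486 tested. That is 31.1%, against 40.8% of the table, of which 13.3% rose and 27.5% fell. In CN30, 169 rose and 180 fell of 816 tested, or 42.8%, against 50.9% of the table, of which 26.1% rose and 24.8% fell. The ages did not overlap in 212 of the tested loci in N2 and 422 in CN30, against 52.1% and 59.9% of the tested table. Among antisense loci 13 rose and 45 fell of 142 tested in N2, and 66 rose and 70 fell of 259 in CN30. Among intergenic loci 6 rose and 40 fell of 176 in N2, and 50 rose and 49 fell of 282 in CN30. With no filter, all later libraries were above day 0 for 314 loci in N2 (10.1%, against 12.9% of the table) and for 867 in CN30 (27.9%, against 30%). All were below for 441 in N2 (14.2%, against 16.2%) and 383 in CN30 (12.3%, against 14.8%).

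The split of rises and falls depended on the scaling. Quantile normalization gave 61 rises and 89 falls in N2, and median-ratio rescaling gave 19 and 199. In CN30 median-ratio rescaling gave 117 rises and 283 falls, and no filter 348 and 201. A filter of 1 FPKM left 89 calls in N2 and 154 in CN30. Single libraries moved counts and split. In N2 there were 54 calls without day-0 replicate 1 (19 rises and 35 falls), 81 without replicate 2 (25 and 56) and 59 without replicate 3 (22 and 37). Without days 6, 9 and 12 of N2 the rises were 17, 13 and 15 and the falls 97, 93 and 120. In CN30 there were 208 calls without day-0 replicate 1 (129 rises and 79 falls), 230 without replicate 2 (155 and 75) and 205 without replicate 3 (127 and 78). Without day 6 of CN30 there were 81 rises and 177 falls, without day 9 there were 187 calls (33 and 154), and without day 12 there were 206 (45 and 161). Each library left out moved the split in CN30 away from even. A locus at 0.5 FPKM or more only in the 3 libraries of 1 age could not enter without any 1 of them. Of the 349 main calls in CN30, 90 were thus not tested without a day-0 library and 111 without a later one. In N2 these were 63 and 14 of 151.

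Many falls were called in both strains. Of 430 single-exon loci tested in both, 78 fell in both, which is 57.4% of the N2 calls and 47.9% of the CN30 calls, and 21 rose in both. A single locus rose in N2 and fell in CN30. Across the 430 loci the log2 differences of the strains had r = 0.923, a description over loci of the same genome from fits that share no library. Neither the shared calls nor r were computed for the whole lncRNA table, where 27.5% of tested loci fell in N2 and 24.8% in CN30. Whether such sharing is particular to single-exon loci was not tested.

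In RNA of whole worms, fewer cells of a type cannot be told apart from less RNA per cell, and genes that mark tissues also differed between the ages. Summed FPKM of 3 body-wall muscle genes was 2206 to 2333 in N2 and 2000 to 2212 in CN30 at day 0, and 104 to 154 and 86.3 to 286 later. The 28 major sperm protein genes in the mRNA table, of 35 listed, summed to 7550 to 9699 FPKM in the N2 libraries and 8544 to 8983 in CN30 at day 0, and to 16.0 to 183 and 56.2 to 428 later. The 6 oocyte and maternal genes went the other way, from 357 to 573 FPKM in the N2 libraries and 510 to 595 in CN30 at day 0 to 1427 to 1893 and 1163 to 1566. Their part in the results on age was not tested.

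Among the named loci the largest falls were of 2 over pseudogenes. LXLOC_005878, on chromosome II, lies over msp-71, a pseudogene of the major sperm protein family, whose proteins drive sperm crawling. It was at 496, 492 and 518 FPKM in the N2 libraries and at 512, 599 and 517 in those of CN30 at day 0. Later it was at 1.77, 0.61 and 13.3 in N2, and at 28.4, 3.73 and 6.11 in CN30. LXLOC_012564, of 205 bases on chromosome IV and lying wholly within the pseudogene Y4C6A.68, was at 526, 693 and 507 in N2 and 588, 672 and 621 in CN30, and later at 1.01, 1.08 and 11.03, and 24.7, 5.44 and 3.98.

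Day 0 and the later days were far apart in both strains for these loci. LXLOC_005878 fell with log2 differences of -6.98 ± 0.69 (SE) in N2 and -5.77 ± 0.60 in CN30 (limma adjusted p = 0.000113 and 0.000156). For LXLOC_012564 the log2 differences were -7.27 ± 0.63 and -6.06 ± 0.55 (limma adjusted p = 6.01e-05 and 8.92e-05). Other genes of the family resemble msp-71, so reads may be shared.

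**Figure D4:**
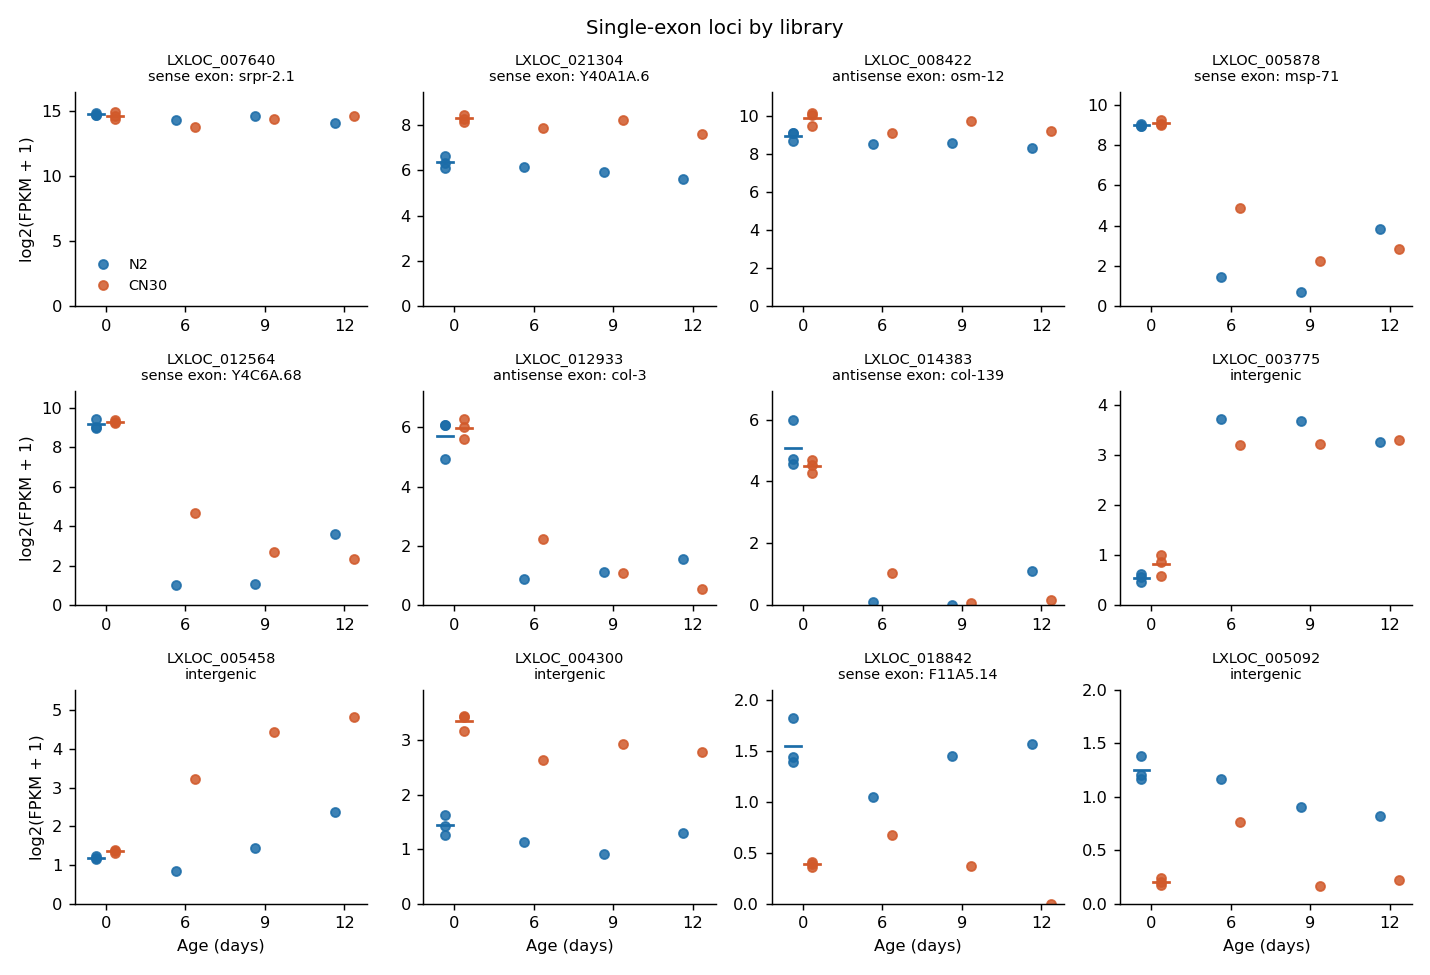
Each panel is a single-exon locus with its position class and the gene it overlaps. Points are libraries by age in days (horizontal) and log2(FPKM + 1) (vertical), blue for N2 and orange for CN30, and short lines are means of the 3 day-0 libraries; the strains stay apart at all ages in LXLOC_021304, LXLOC_008422, LXLOC_004300 and LXLOC_018842, and LXLOC_005878 and LXLOC_012564 drop after day 0.

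A group of 45 loci ran antisense to genes with the prefixes col-, bli-, dpy-, rol- or sqt-, nearly all of them cuticle collagens, which build the worm's exoskeleton, 1 locus per gene. The prefix also takes in dpy-21, a gene of dosage compensation. In N2, 23 of the 45 were tested and 22 fell, with a median log2 difference of -3.09. In CN30, 26 were tested, 25 fell and 1 rose, with a median of -2.41. Over all 45, with no filter, 42 had a lower mean at the later days in each strain, and for 31 in N2 and 34 in CN30 all later libraries were below all day-0 libraries, against 16.2% and 14.8% of the table. Without a day-0 replicate fewer were tested: in N2 all loci then tested fell, 11, 12 and 11 without replicates 1, 2 and 3, and in CN30 14 of 15 fell without any 1 of the 3.

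LXLOC_012933, of 586 bases on chromosome IV, lies wholly across col-3. It was at 67.6, 29.7 and 66.4 FPKM in the N2 libraries and at 64.1, 47.4 and 77.4 in those of CN30 at day 0, and at 0.85, 1.17 and 1.94, and 3.73, 1.11 and 0.47 later. The ages did not overlap, and it fell with log2 differences of -4.52 ± 0.345 (SE) in N2 and -4.68 ± 0.41 in CN30 (limma adjusted p = 2.78e-05 and 7.57e-05). col-3 itself fell with -5.36 and -5.52 (limma adjusted p = 2.59e-05 and 0.000995).

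LXLOC_014383, of 713 bases on chromosome V, lies wholly across col-139. It was at 22.6, 63.1 and 25.3 FPKM in the N2 libraries and at 21.9, 18.4 and 25.1 in those of CN30 at day 0, and later at 0.08, 0 and 1.17, and 1.06, 0.04 and 0.12. Here N2 replicate 2 was far above the other libraries, and all later values were below 2 FPKM. It fell with log2 differences of -4.68 ± 0.44 (SE) in N2 and -4.08 ± 0.28 in CN30 (limma adjusted p = 8.08e-05 and 2.43e-05), and col-139 with -7.22 and -7.26 (limma adjusted p = 0.000153 and 0.00166).

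These loci also followed their genes within day 0. N2 replicate 2 was below the other N2 libraries for LXLOC_012933 and above them for LXLOC_014383, and so it was for the genes. col-3 was at 815 FPKM in that library against 1866 and 1843, and col-139 at 6078 against 3091 and 3044. Of the 24 loci of the group with a mean of at least 1 FPKM in N2 at day 0, 11 were higher and 13 lower in replicate 2 than in the mean of the other 2 on the log2 scale, by -3.34 to 1.85. All 24 deviated with the sign of their gene, with r = 0.942 over loci of the same libraries. Summed over the 45 pairs, the antisense loci had 0.867% to 2.66% of the FPKM of their genes in each library. Reads of the other strand cannot be told apart here if the preparation did not keep it, and their part was not tested.

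The single rise of the group, in CN30, was LXLOC_009131 across dpy-17, a cuticle collagen that rose as well. The locus had means of 0.30 FPKM at day 0 and 0.857 later (log2 difference 0.51, limma adjusted p = 0.00582), and dpy-17 had a log2 difference of 4.44 (limma adjusted p = 2.24e-05). The locus was not tested without any 1 of the later CN30 libraries.

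All antisense loci, those across the collagens included, were set beside the genes they cross wherever both were tested. For the change with age r was 0.724 over 102 loci in N2 and 0.655 over 185 in CN30. Without the loci across genes with the collagen prefixes, an alternative chosen after seeing the data, r was 0.0849 over 79 loci in N2 and 0.193 over 159 in CN30. For strain r was 0.21 over 135 loci at day 0 and 0.306 over 145 at the later days, and 0.0394 and 0.181 without those loci. These are descriptions over loci that share libraries. Of all mRNA genes tested, 72.7% were called for age in N2 and 80.9% in CN30, and 3.68% and 13% were called for strain at day 0 and later. For strain, no pair had both locus and gene called at day 0, and 5 did later, all of them higher in CN30. For age, both were called in 43 pairs in N2, of which 26 fell together, 9 rose together and 8 moved in opposite directions, and without the collagen prefixes 4 fell together. In CN30, both were called in 88 pairs, of which 40 fell and 29 rose together and 19 moved in opposite directions, and without the collagen prefixes 15 fell and 28 rose together.

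**Figure D5:**
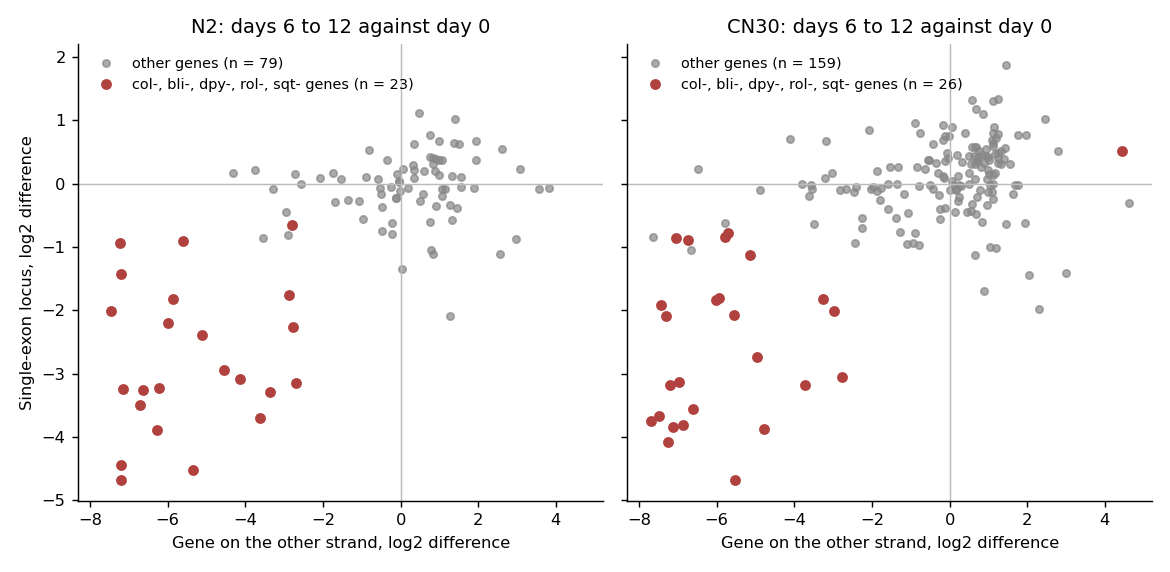
Each point is an antisense single-exon locus, with the log2 difference of days 6 to 12 against day 0 of the gene it crosses (horizontal) and of the locus (vertical), in N2 (left) and CN30 (right). Red points are loci across genes with the collagen prefixes, which lie at the lower left except for the 1 at dpy-17 in CN30.

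The pairs with opposite changes were named after their values were seen. In N2 all 8 were loci that fell while the gene rose. LXLOC_004492, across F46C5.1, was at 1.48, 0.92 and 1.67 FPKM in N2 at day 0 and at 0, 0.13 and 0.12 later. In CN30 it was at 2.54, 2.66 and 1.86, and later at 0.33, 0.21 and 0.15. It fell with log2 differences of -1.11 in N2 and -1.44 in CN30. In each strain the locus reached 0.5 FPKM only at day 0, so it could be called only as a fall. F46C5.1 rose from means of 0.117 and 0.0867 FPKM to 5.70 and 3.78.

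LXLOC_013546, across thoc-7, a subunit of the THO complex in mRNA export, was at 3.03, 2.89 and 3.30 FPKM in N2 at day 0 and at 0.86, 0.85 and 0.97 later, while thoc-7 had means of 74.6 and 136 FPKM. In CN30, 13 of the 19 pairs had a falling locus and 6 a rising one. All 6 rising loci reached 0.5 FPKM in CN30 only at the later days, so they could be called only as rises. LXLOC_006707, across samp-1, a gene of the inner nuclear membrane, was at 2.07, 2.40 and 2.26 FPKM in CN30 at day 0 and at 0.30, 0.10 and 0.28 later, and samp-1 had means of 0.26 and 12.5 FPKM. This locus reached 0.5 FPKM in CN30 only at day 0, so it could be called only as a fall. In the other direction LXLOC_005246, across lgc-34, a ligand-gated ion channel gene, was at 0, 0.03 and 0 in CN30 at day 0 and at 0.75, 0.52 and 0.56 later, and lgc-34 had means of 24.8 and 1.99 FPKM.

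Relative to genes at 1 FPKM or more, most antisense loci were low. Pairs with a lower gene were left out, among them LXLOC_008422 and osm-12, where the locus was the higher. Where the gene reached 1 FPKM, the locus had a median of 0.305% of the gene's level in N2 at day 0, 0.347% in N2 later, 0.334% in CN30 at day 0 and 1.05% in CN30 at the later days. Between 1 and 4 loci per group were above their gene, of 856 to 926 compared.

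Of the 6 named rises with age, 3 were intergenic. LXLOC_003775, of 579 bases on chromosome II and 875 bases from the nearest gene, was at 0.37, 0.54 and 0.48 FPKM in N2 and at 0.82, 1.0 and 0.50 in CN30 at day 0. Later it was at 12.2, 11.8 and 8.49 in N2 and at 8.17, 8.22 and 8.83 in CN30. Its ages were far apart in both strains, while its strains overlapped at day 0. It rose by 3.0 ± 0.19 (SE) in N2 and 2.42 ± 0.16 in CN30 on the log2 scale (limma adjusted p = 7.58e-06 and 2.43e-05). LXLOC_005458 and LXLOC_003579 rose in CN30, by 2.80 and 2.25 (limma adjusted p = 0.000501 and 0.000737), and in N2 had log2 differences of 0.36 and 0.74 that did not pass (limma adjusted p = 0.449 and 0.0902).

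LXLOC_008619, antisense to 99 bases of F40G9.6 on chromosome III, rose from means of 0.267 to 3.45 FPKM in N2 and from 0.27 to 5.34 in CN30. Its later N2 values were 1.67, 1.22 and 7.46 FPKM, with day 12 far above the others. The log2 differences were 1.54 and 2.28 (limma adjusted p = 0.0248 and 0.000173), and the call in N2 was lost without any 1 of the N2 day-0 libraries. LXLOC_000725, on chromosome I, shares 451 of its 861 bases with exons of pqn-20, a gene with a glutamine- and asparagine-rich domain. It rose from 3.42 ± 0.67 to 11.1 ± 3.59 FPKM in N2 (log2 difference 1.43, limma adjusted p = 0.00199). In CN30 it rose from 4.98 ± 1.39 to 10.9 ± 3.62 FPKM (0.98, limma adjusted p = 0.0191), a call lost without CN30 day-0 replicate 1 or 3 or day 9. Each ± is an SD, over the 3 replicates at day 0 and over days 6, 9 and 12 later. The gene pqn-20 rose as well, by 1.07 and 0.98 (limma adjusted p = 0.000277 and 6.21e-05). LXLOC_006858, over the noncoding gene T21B4.21 on chromosome II, rose from 0.383 to 2.71 FPKM in N2 and from 0.507 to 3.66 in CN30 (log2 differences 1.42 and 1.53, limma adjusted p = 0.000306 and 0.00431).

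Whether age acted differently in the strains was tested over all 12 libraries, for 1131 of the single-exon loci. A single locus passed, in the negative direction (0.0884%, against 0.466% of the table, 0.349% positive and 0.116% negative), and 174 had an unadjusted p under 0.05. It was LXLOC_008334, of 828 bases on chromosome III, which overlaps the snoRNA gene Y48A6C.10 by 119 bases. It was at 1.08, 1.56 and 1.01 FPKM in CN30 at day 0 and at 0.20, 0.13 and 0.07 later. In N2 it was at 0.24, 0.15 and 0.18, and later at 0.17, 0.04 and 0.20. The CN30 libraries of day 0 thus stood above the other 9. The interaction was -0.89 ± 0.17 (SE) on the log2 scale (limma adjusted p = 0.0408). With day as a factor 42 loci were called, 35 positive and 7 negative, LXLOC_008334 among them. The number of loci called was 59 without N2 day 12, 37 without CN30 day 6, 2 without N2 replicate 2 or CN30 replicate 3 of day 0, and 0 without any 1 of 7 other libraries. LXLOC_008334 itself was called without N2 day 12 or CN30 day 6, was not tested without any 1 of the CN30 day-0 libraries, and missed the threshold without any 1 of the other 7.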

How the data were processed

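The lncRNA and mRNA tables hold FPKM per gene and library that the authors computed before deposit; another deposited table gives, for each assembled transcript, its number of exons, its length and its place, with no value per sample, and was joined by locus ID. The submitters' processing notes name HISAT, StringTie and WBcel235, without versions or roles. The depth per sample is unknown. Members and gene lists were chosen with earlier results of these data known.

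Positions were classed against the Ensembl release 115 annotation of WBcel235. Exons on the same strand came first, then exons on the other strand, then introns. A locus's gene is the one with the largest exon overlap, and genes were matched to the mRNA table through RefSeq gene IDs. The test was limma (version 3.58.1, R version 4.3.3, eBayes with a trend after lmFit) on log2(FPKM + 1) of the whole lncRNA table, with at least 0.5 FPKM (mRNA: 1 FPKM) in 3 libraries of the fit. P-values are two-sided and adjusted by Benjamini-Hochberg over all loci tested, with a threshold of 0.05. The strain comparison at days 6 to 12 had day as a factor, and age pooled days 6, 9 and 12 as 1 class. No read counts entered a test.

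Named loci are, per comparison, the 4 largest rises and falls among called loci whose higher group averaged 1 FPKM or more and whose groups did not overlap (same sign in all pairs of days; no such condition for the interaction), the 8 loci with the highest mean, loci at 0 throughout one strain, the longest and the shortest, with their overlapped genes. Alternatives were a pseudocount of 0.1, no filter or one of 1 FPKM, quantile normalization, median-ratio rescaling with factors from the mRNA table, robust shrinkage, a replicate block, omission of the day term, day as a factor, each library left out, an overlap of 50% and other definitions of 0. The fits were tested on simulated data, with changes put into loci of higher level. A log2 change of 1 was recovered in 77.6% to 98.1% of loci in the strain and age fits, and in 43.7% in the interaction fit. False calls were 4.46% to 6.58% of the calls in the strain and age fits, and 16.4% in the interaction fit. Matplotlib 3.10.9 drew the figures, and NumPy 2.4.6 and pandas 2.3.3 under Python 3.11.15 made the tables. Sequence content of the loci was not analysed here.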

Additional observations from a re-analysis of the deposited data

Results flagged for a closer look

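LXLOC_008334, over the snoRNA gene Y48A6C.10, was the 1 single-exon locus whose change with age differed between the strains by the test of the difference itself. The interaction was -0.89 on the log2 scale (limma adjusted p = 0.0408). The call was lost with a pseudocount of 0.1, with no filter with robust shrinkage, and without any 1 of 7 of the libraries. It was not tested without any 1 of the CN30 day-0 libraries, and remained without N2 day 12 or CN30 day 6. In the simulated data 16.4% of the interaction calls were false. Changes were put there into loci of higher level than LXLOC_008334, which had a mean of 0.42 FPKM. That share is therefore not the chance that this call is false.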

How the results depend on the processing

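The counts of loci called moved with the filter, the scaling and single libraries. At day 0 the 61 calls between strains were 26 with no filter, 41 with a pseudocount of 0.1, 43 with the replicate block and 15 to 76 with a library left out. At days 6 to 12 the 110 calls were 8 with no filter, 20 after quantile normalization, 37 with a filter of 1 FPKM, 52 with no day term and 44 to 186 with a library left out. The 151 calls for age in N2 were 89 with a filter of 1 FPKM and 54 to 135 with a library left out. The 349 in CN30 were 549 with no filter, 154 with a filter of 1 FPKM and 187 to 258 with a library left out. The 1 interaction call was 0 with a pseudocount of 0.1, no filter or robust shrinkage, 3 after quantile normalization or median-ratio rescaling, 6 with a filter of 1 FPKM, 42 with day as a factor and 0 to 59 with a library left out. The cause of these moves was not tested, except that a stricter filter or a missing library leaves fewer loci to test.

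With an overlap of 50% the classes held 866 antisense, 1673 intergenic, 74 same-strand exonic, 151 same-strand intronic and 337 other-strand intronic loci. The intergenic class then takes in loci with a smaller overlap. Counting values under 0.1 FPKM in place of 0, the library shares ran from 14.9% to 49.0%, and medians over loci above 0 ran from 0.19 to 0.58 FPKM. Of the called changes of named loci, 3 lost or changed their sign, all after quantile normalization, and none was then called: LXLOC_008422 at days 6 to 12 (0), LXLOC_012218 for age in N2 (0.0278) and LXLOC_010344 for age in CN30 (0.0264). At day 0 the deviations of libraries with the same replicate number had correlations of 0.106, -0.0409 and -0.0734 between strains. These cannot tell whether such libraries were grown or prepared together, and the main fit did not pair them. Levels near 0 limit what can be seen: most of the 3104 loci entered no test, and the depth behind a 0 is unknown.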
